A study of Rattus norvegicus with 4 samples.

Results

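The genes described here are those of the tuberous sclerosis complex and the kinase mTOR, a set of 9 named genes (Tsc1, Tsc2, Rheb, Mtor, Rptor, Rictor, Mlst8, Rps6kb1 and Eif4ebp1). They were taken by symbol, a rule that uses no measured value. Of the 9, 7 have a row among the 25810 genes of the count files, and all 7 passed the filter on low counts. Rheb and Rptor have no row under these symbols and were not analysed here. RNA was sequenced from a pair of clones of PC12, a line isolated from a rat pheochromocytoma, with 2 libraries for each clone. The wtPC12 clone carries low REST, the repressor of neuronal genes, and the hrPC12 clone, also called PC12-27, spontaneously carries high REST. The labels name no treatment, and since a single clone stands for each REST level, the REST level cannot be told apart from whatever else distinguishes these clones. The labels do not say whether the 2 libraries of a clone came from separate cultures, and the p values therefore measure only the spread between these libraries, which may be technical.

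The proteins of this set form a relay that couples nutrients and growth factors to protein synthesis and cell growth. Tuberin, the product of Tsc2, binds hamartin, the product of Tsc1, and the complex switches off the small GTPase Rheb, the direct activator of mTOR. Together with raptor, the kinase acts as mTORC1, which phosphorylates the S6 kinase and the eIF4E-binding proteins. With rictor it acts as mTORC2, and the Mlst8 product is part of both. Control of the relay is largely by phosphorylation and by binding between proteins, which RNA counts do not measure. Tsc2 is of interest in these cells because it has been described as a link between REST and the proliferation of PC12 clones, so the question put to the libraries was whether its transcript, and those of its partners, differ between the clones.

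Reads counted on genes were between 20975027 and 27246502 per library. Normalized counts are reads divided by the library total after correction with edgeR's TMM factors, on the scale of the mean library. Rest itself had 43.0 and 132 normalized counts for replicates 1 and 2 of wtPC12 and 964 and 915 for those of hrPC12, in the direction of the labels. Its log2 fold change (hrPC12/wtPC12) was 3.42, with an adjusted p of 0.0115 by edgeR and 1.98e-10 by DESeq2. In edgeR, Rest therefore did not pass the adjusted p of 0.01 used by the study. The wtPC12 replicates of Rest differed 3.06-fold, more than in 94.2% of all tested genes. Of the chromaffin cell markers, Chgb, the gene of chromogranin B, had 687936 and 626776 normalized counts in wtPC12 but 288 and 819.6 in hrPC12, and the summed level of the 8 chromaffin markers found ranged from 814790 to 953098 in wtPC12 and from 45925 to 50398 in hrPC12. The white blood cell markers Ptprc and Cd79b had at most 1 read in any library. The 10 markers of that kind summed to between 259.6 and 305 normalized counts in wtPC12 and between 112 and 118 in hrPC12. That step was carried by Lcp2, at 256 and 218 in wtPC12 and 5.08 and 6.07 in hrPC12, whereas Cd68 (log2 FC 1.63, adjusted p = 0.0283, edgeR), Spi1 (2.36, adjusted p = 0.0338, edgeR) and Cd3e (0.46, adjusted p = 0.661, edgeR), the other tested markers, lay higher in hrPC12. Endothelial markers (6 found) summed to between 95.4 and 115 in wtPC12 and between 621 and 634 in hrPC12, with Emcn at 0 reads throughout. Vwf carried that step, with 66.3 and 81.4 in wtPC12 and 564 and 559.5 in hrPC12 (log2 FC 2.92, adjusted p = 0.00230, edgeR), and Tek had a log2 FC of 1.31 (adjusted p = 0.0665, edgeR). Erythroid markers (3 found) were at 0 reads apart from Hba2, which reached at most 20.2 normalized counts. Whether these markers play a part in the values below was not tested.

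None of the 7 genes passed the threshold used by the study, an adjusted p under 0.01, where 13.1% of the 13726 tested genes did (quasi-likelihood test of edgeR, with p values adjusted by Benjamini-Hochberg over all tested genes, as for every adjusted p from edgeR below). With an unadjusted p under 0.05 there were 2, Mlst8 and Rps6kb1, beside 46.3% of all tested genes. DESeq2 called 1, Rps6kb1, at an adjusted p under 0.01, beside 27.7% of all tested genes. At an adjusted p under 0.05 the same 2 genes were reached, Mlst8 lower and Rps6kb1 higher in hrPC12, against 32.4% of all tested genes at that threshold. In 5 of the 7 genes the ranges of the clones did not overlap, as was so in 73.5% of all tested genes. The median log2 fold change (log2 FC, hrPC12/wtPC12) of the 7 genes was 0.09, beside 0.06 over all tested genes, and their single values ran from −0.74 (Mlst8) to 1.37 (Rps6kb1). All 7 therefore stayed within the log2 FC of 2 that the study required of a differentially expressed gene, which 10.3% of all tested genes passed together with the adjusted p threshold.

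**Figure D1:**
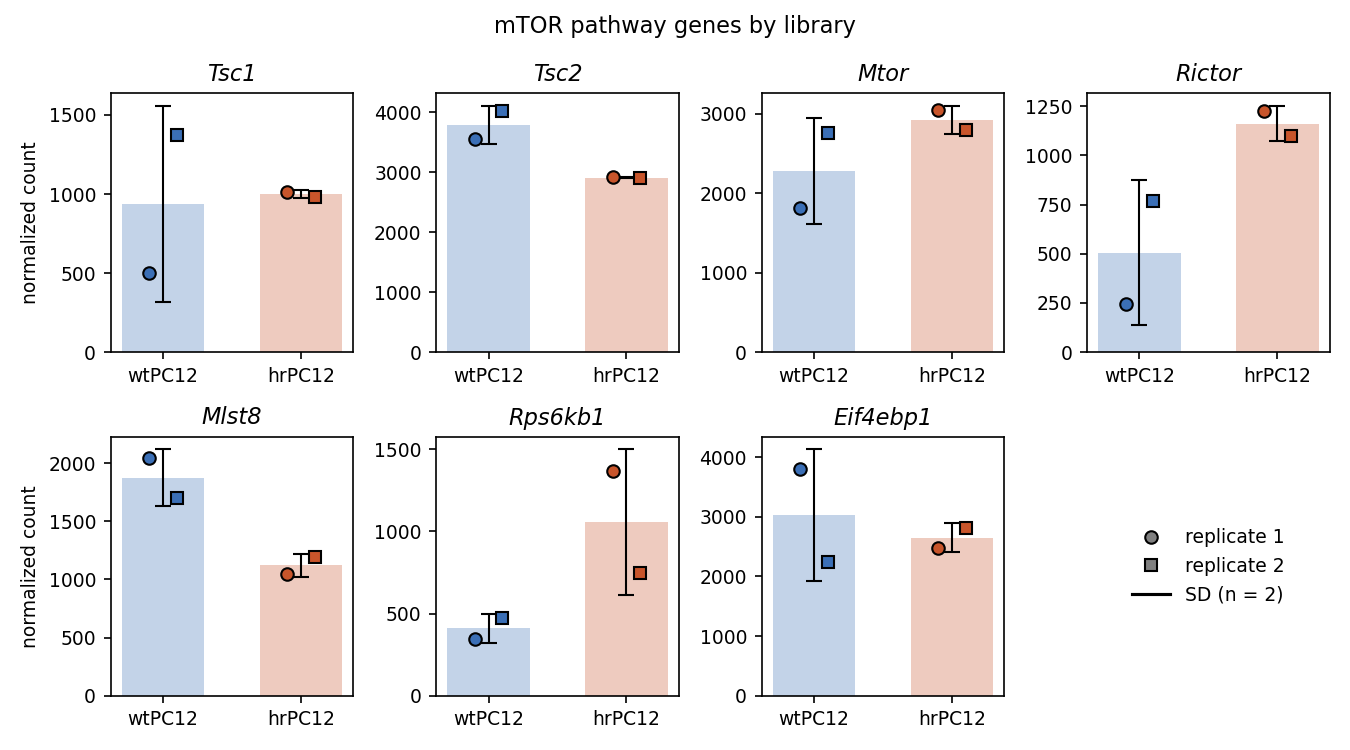
Normalized counts (vertical axes, from 0) of the 7 genes in each library of wtPC12 (blue) and hrPC12 (orange), with circles for replicate 1, squares for replicate 2, bars for the mean of the clone and error bars for the SD (n = 2). The clones overlap for Tsc1 and Eif4ebp1, and the wtPC12 replicates of Tsc1 lie at 499 and 1376.

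Tsc2 was slightly less abundant in hrPC12 than in wtPC12, by an amount that did not pass the test. It was covered by 3061 and 3898 reads in replicates 1 and 2 of wtPC12, and by 3443 and 2870 reads in those of hrPC12. After normalization these became 3561, 4015, 2915 and 2904, with means of 3788 ± 321 for wtPC12 and 2909 ± 7.57 for hrPC12 (SD, n = 2). Both hrPC12 libraries lay below both wtPC12 libraries, and the hrPC12 replicates were nearly equal. Its log2 FC of −0.38 (standard error 0.16), or 1.30-fold less in hrPC12, had an adjusted p of 0.132 (edgeR). Its 95% confidence interval ran from −0.80 to 0.04 on the log2 scale. A change of the transcript as large as the log2 FC of 2 used by the study lies outside that interval, while no change lies within it. With each library left out in turn the log2 FC of Tsc2 stayed between −0.50 and −0.29.

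The promoter window of Tsc2 is shown because direct repression by REST goes with its binding to RE-1, a DNA element with a left part and a right part. In RefSeq on the rat assembly GRCr8, which is not the build of the counts, the 250 bases before the annotated start of Tsc2 lie at chr10:14160240-14160489 on the minus strand, and those of Tsc1 at chr3:32367447-32367696 on the plus strand. Both are given 5′ to 3′, with capitals for letters that match the left part (CAGCACC) or the right part (GGACAG) of RE-1 on either strand.
Tsc2: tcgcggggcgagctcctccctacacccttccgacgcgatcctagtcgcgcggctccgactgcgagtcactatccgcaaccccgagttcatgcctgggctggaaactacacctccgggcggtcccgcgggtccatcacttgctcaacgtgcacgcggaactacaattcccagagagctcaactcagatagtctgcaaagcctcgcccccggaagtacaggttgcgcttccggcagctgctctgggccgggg
Tsc1: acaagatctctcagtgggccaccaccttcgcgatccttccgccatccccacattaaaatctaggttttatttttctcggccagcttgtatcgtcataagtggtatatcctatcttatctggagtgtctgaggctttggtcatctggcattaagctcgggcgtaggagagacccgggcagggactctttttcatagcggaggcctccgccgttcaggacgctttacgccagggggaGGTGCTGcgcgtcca
Neither part occurs in the window of Tsc2, over the 300 bases that also take in the 50 after the start. The window of Tsc1 holds the left part once, on the minus strand, beginning 15 bases before the start, and no right part. Among all 33469 rat promoter windows of that length, 6.78% hold the left part, 21.7% the right part and 1.59% both. The windows of Rheb, Mtor, Rictor, Mlst8 and Rps6kb1 hold neither part. No window was available for Eif4ebp1 or Rptor, and these were not searched. Such letters describe the window and are not evidence of a bound site, and RE-1 elements elsewhere in the genes were not searched.

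Tsc1, which stabilizes tuberin, could not be placed on either side. Its normalized counts were 499 and 1376 for replicates 1 and 2 of wtPC12 and 1016 and 980.5 for those of hrPC12. Both hrPC12 libraries thus lay between the wtPC12 libraries. The log2 FC was 0.09 (standard error 0.49, adjusted p = 0.894, edgeR), with a 95% interval from −1.15 to 1.33, wide enough to hold a change of more than 1 log2 unit in either direction. Leaving out wtPC12 replicate 1 moved it to −0.49, and leaving out replicate 2 of that clone to 1.0. The 2.76-fold gap between the wtPC12 replicates exceeded that of 92.9% of all tested genes. Counted within a library, where no normalization enters, there were 14.0 reads on Tsc1 per 100 reads on Tsc2 in wtPC12 replicate 1 and 34.3 in wtPC12 replicate 2, against 34.9 and 33.8 in the hrPC12 libraries. The ratio, which is not one of levels because transcript lengths were not used, was therefore alike in 3 libraries and low in wtPC12 replicate 1.

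Mtor, the kinase itself, had 1814 and 2758 normalized counts in wtPC12 and 3051 and 2803 in hrPC12. The lower hrPC12 library lay just above the higher wtPC12 library. Its log2 FC was 0.36 (standard error 0.25, 95% interval −0.28 to 0.99, adjusted p = 0.306, edgeR). Most of that distance came from wtPC12 replicate 1, since the log2 FC was 0.05 without it and 0.69 without wtPC12 replicate 2.

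Rictor, the subunit that defines mTORC2, had the widest spread of the set. Its normalized counts were 244 and 766 in wtPC12 and 1225 and 1098 in hrPC12. Both hrPC12 libraries were higher than both wtPC12 libraries, yet the wtPC12 replicates differed 3.14-fold, more than in 94.9% of all tested genes. The log2 FC of 1.20 (standard error 0.54, 95% interval −0.19 to 2.59) had an adjusted p of 0.147 (edgeR) and did not pass. Left with wtPC12 replicate 2 alone it was 0.57, and with wtPC12 replicate 1 alone it was 2.25. Within libraries, an alternative chosen after seeing the data, there were 13.5 and 27.8 reads on Rictor per 100 reads on Mtor in wtPC12 and 40.1 and 39.2 in hrPC12.

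Mlst8, which binds the kinase domain in both complexes, lay lower in hrPC12, past an adjusted p of 0.05 but not 0.01. It had 2048 and 1701 normalized counts for replicates 1 and 2 of wtPC12 and 1049.7 and 1192 for those of hrPC12. The clones did not overlap, and the gap between them was wider than the gap between replicates of either clone. The log2 FC was −0.74 (standard error 0.20, 95% interval −1.26 to −0.22), or 1.67-fold less in hrPC12, with an adjusted p of 0.0460 (edgeR). It stayed negative with each library left out, between −0.88 and −0.63, but the adjusted p (edgeR) was 0.0989 without wtPC12 replicate 1, 0.306 and 0.116 without hrPC12 replicates 1 and 2, and stayed under 0.05 when wtPC12 replicate 2 was left out (0.0418). With library totals in place of TMM factors the adjusted p was 0.0656, so that Mlst8 then passed neither threshold. It had 113 and 61.7 reads per 100 reads on Mtor in wtPC12 and 34.4 and 42.5 in hrPC12, again a ratio chosen after seeing the data.

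**Figure D2:**
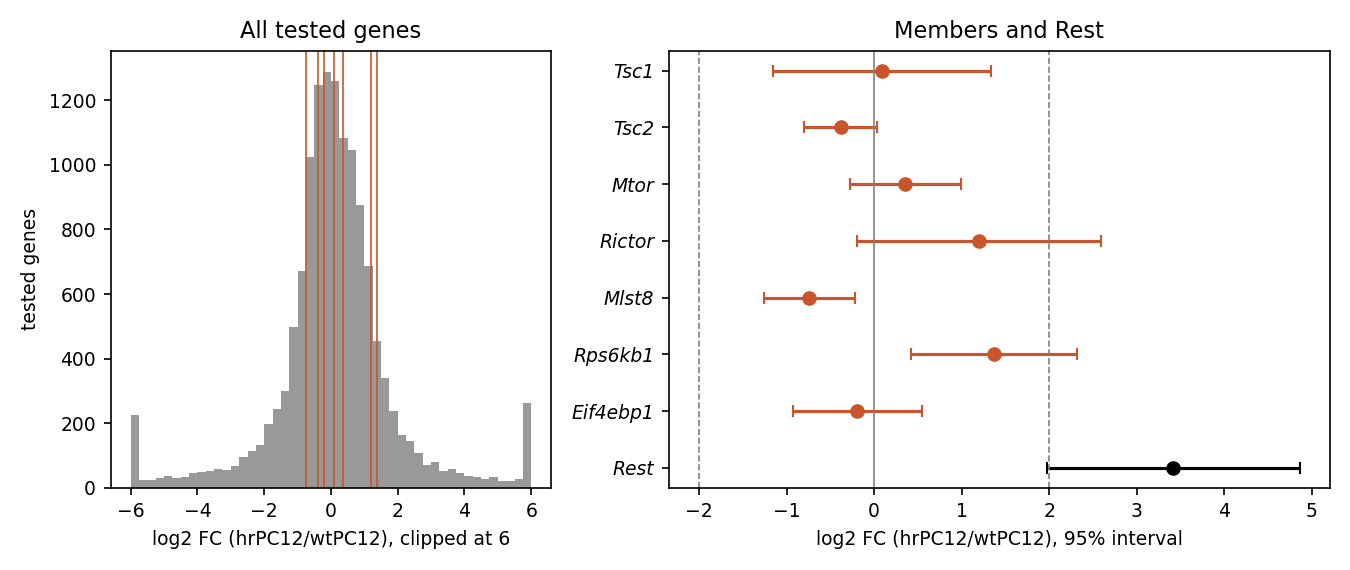
Left, number of tested genes (vertical axis) by log2 FC (hrPC12/wtPC12, values past 6 drawn at 6), with an orange line for each of the 7 genes; right, log2 FC (points) and 95% confidence intervals (bars) of the 7 genes and of Rest, with dashed lines at −2 and 2. The intervals of Mlst8 and Rps6kb1 do not reach 0, those of the other 5 genes cross it, and that of Rest runs from 1.98 to 4.86.

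Of the substrates of mTORC1, the S6 kinase gene Rps6kb1 lay higher in hrPC12, likewise past 0.05 but not 0.01 in edgeR. Its normalized counts were 348 and 471 for replicates 1 and 2 of wtPC12 and 1371 and 745 for those of hrPC12. Both hrPC12 libraries were above both wtPC12 libraries, and the hrPC12 replicates lay 1.84-fold apart, a wider gap than in 86.5% of all tested genes. The log2 FC was 1.37 (standard error 0.37, 95% interval 0.42 to 2.32), or 2.58-fold, with an adjusted p of 0.0448 by edgeR and 0.00284 by DESeq2. Without hrPC12 replicate 1 the log2 FC was 0.86 and the adjusted p 0.211 (edgeR). The adjusted p was 0.113 without either wtPC12 library and 0.0123 without hrPC12 replicate 2 (edgeR).

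The genes around Rps6kb1 shared that gap between the hrPC12 libraries. In the gene order of GRCr8, the 3 nearest tested genes on each side were all higher in hrPC12 replicate 1 than in replicate 2, by 0.75 to 0.96 on the log2 scale, and Rps6kb1 by 0.88. The median over the 6 neighbours was 0.86. It was between −0.13 and 0.18 for Tsc1, Tsc2, Mtor, Mlst8 and Eif4ebp1, and 0.63 for Rictor, whose own value was 0.16. The part of these neighbourhoods in the fold changes was not tested beyond the values without hrPC12 replicate 1.

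Eif4ebp1, which codes for a repressor of cap-dependent translation that mTORC1 inactivates, had 3806 and 2245 normalized counts in wtPC12 and 2473 and 2818 in hrPC12. The hrPC12 libraries lay between the wtPC12 libraries. The log2 FC was −0.19 (standard error 0.29, 95% interval −0.93 to 0.54, adjusted p = 0.624, edgeR) and turned to 0.21 without wtPC12 replicate 1. Its paralog Eif4ebp2 had 604 and 1083 normalized counts in wtPC12 and 2325 and 1151 in hrPC12 (log2 FC 1.04, adjusted p = 0.133, edgeR), and the paralog of the other substrate, Rps6kb2, had 1126 and 963 in wtPC12 and 675 and 668 in hrPC12 (log2 FC −0.64, adjusted p = 0.0708, edgeR). These paralogs were named after their values were seen. Reads on Eif4ebp1 per 100 reads on Eif4ebp2 were 630.4 and 207 in wtPC12 and 106 and 245 in hrPC12, so the clones overlapped. Reads on Rps6kb1 per 100 reads on Rps6kb2, a ratio added after the data were seen, were 30.9 and 48.9 in wtPC12 and 203 and 112 in hrPC12 and did not overlap.

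**Figure D3:**
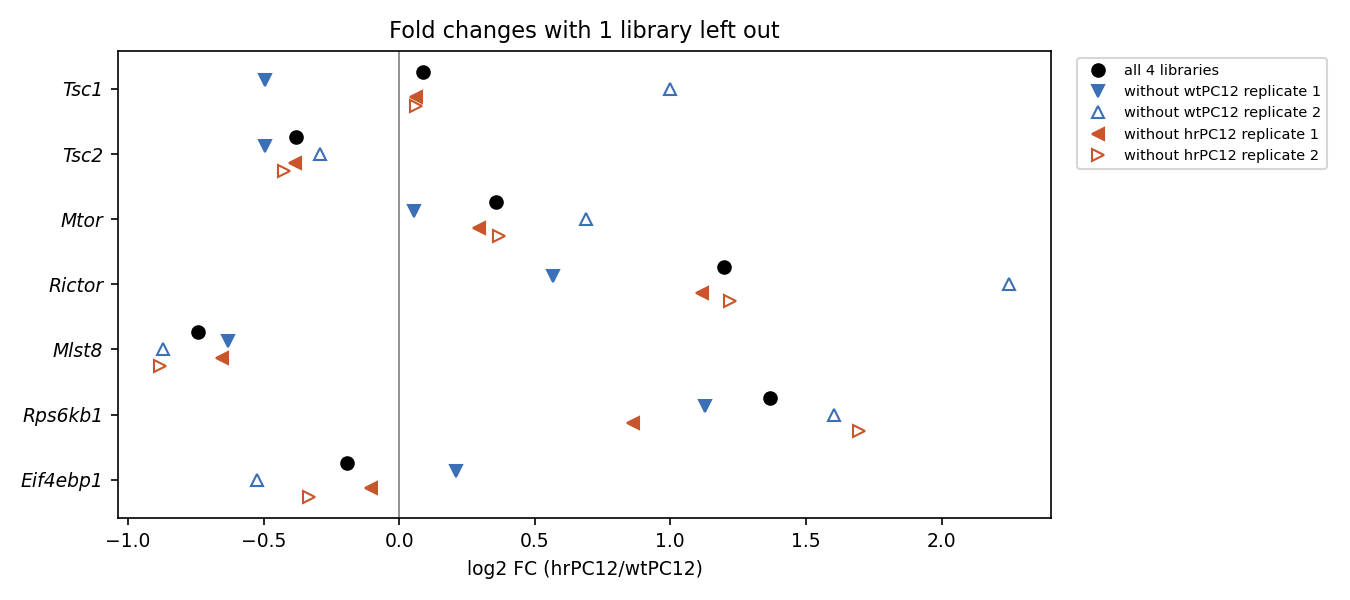
Log2 FC (hrPC12/wtPC12, horizontal axis) of the 7 genes with all 4 libraries (black circles) and with each library left out (triangles, blue for wtPC12 and orange for hrPC12, filled for replicate 1 and open for replicate 2). Tsc1 and Eif4ebp1 change side, at −0.49 and 0.21 without wtPC12 replicate 1, while Tsc2 stays between −0.50 and −0.29.

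In GRCr8, the span of Tsc2 overlaps Pkd1, that of Mtor overlaps Angptl7, that of Mlst8 overlaps Bricd5 and that of Rps6kb1 overlaps Rnft1. Of these partners Rnft1 has a row in the count files. The TruSeq RNA kit used does not keep the strand, so reads of such partners cannot be told apart from those of the members where their exons overlap. Reads that fell in more than 1 gene of the annotation used were left out by the counting and made up 0.105% to 0.329% of the reads of a library. Pkd1, Angptl7 and Bricd5 have no row under these symbols. If they were absent from that annotation, reads on exons they share with a member would have been counted to the member.

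The genes whose pattern over the 4 libraries was most like that of Tsc2 were D3ZY42_RAT, F1M711_RAT, Vash2, D4A5Y9_RAT and Fbxw11, as the files name them. Likeness is the Euclidean distance between log2 CPM values centred on the mean of a gene, here over 4 libraries and among 10817 genes with at least 100 normalized counts on average, and was between 0.010 and 0.032 on the log2 scale. Fbxw11, which codes for a subunit of a ubiquitin ligase, had 3086 and 3542 normalized counts in wtPC12 and 2606 and 2559 in hrPC12. Vash2 had 473 and 525 in wtPC12 and 380.1 and 382 in hrPC12. D3ZY42_RAT had 995 and 1116 in wtPC12 and 814 and 815 in hrPC12 and F1M711_RAT had 1000.4 and 1131 in wtPC12 and 826 and 825 in hrPC12. All 5 share with Tsc2 a modest step between the clones and a smaller one between the wtPC12 replicates, which says nothing of a shared control.

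Beyond the 9 genes, 132 other genes of the pathway were listed by role, of which 109 were found in the count files and 106 were tested. Past an adjusted p of 0.01 there were 5 lower and 4 higher in hrPC12, or 8.49% of the 106, beside 7.14% lower and 5.94% higher among all tested genes (edgeR). Their median log2 FC was −0.04. The share of calls at an adjusted p under 0.01 was thus below the 13.1% of all tested genes. At an adjusted p under 0.05 it was 26.4%, beside 32.4% of all tested genes (edgeR). An unadjusted p under 0.05 was reached by 55 of the 106 and by 6357 of the 13726 tested genes (46.3%, edgeR). By that measure the share of the list lay somewhat above the background. Without wtPC12 replicate 2 the calls at 0.01 were lost, in this list and among all tested genes alike. DESeq2 with all 4 libraries called 27 of the 106 (25.5%), beside 27.7% of all tested genes.

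**Figure D4:**
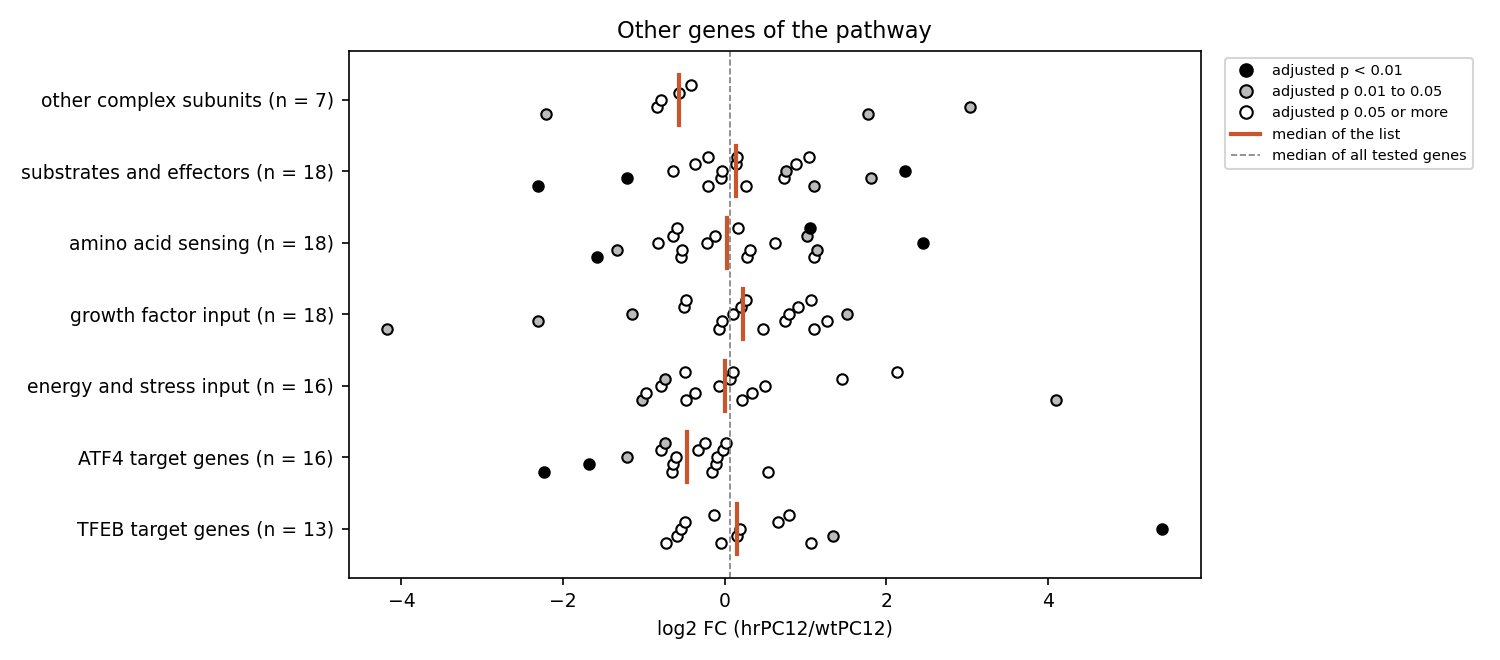
Log2 FC (hrPC12/wtPC12, horizontal axis) of the tested genes of 7 lists of the pathway, filled black for an adjusted p under 0.01, grey up to 0.05 and white above, with an orange bar for the median of the list and a dashed line for that of all tested genes (0.06). The lists centre near 0 apart from the ATF4 target genes, with a median of −0.47, and the other complex subunits, with −0.57.

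Of the other subunits of the complexes, 7 were tested and none passed an adjusted p of 0.01 (edgeR), while 3 (42.9%) passed 0.05, beside 32.4% of all tested genes, and DESeq2 called 3 at 0.01, beside 27.7%. Deptor, an inhibitor that binds mTOR and is listed under its older symbol Depdc6, had 5.82 and 20.6 normalized counts in wtPC12 and 111 and 110.3 in hrPC12 (log2 FC 3.03 with a standard error of 0.61, adjusted p = 0.0201 by edgeR). Prr5, which codes for a subunit of mTORC2, had 183 and 239 in wtPC12 and 55.0 and 35.4 in hrPC12 (log2 FC −2.21 with a standard error of 0.38, adjusted p = 0.0133 by edgeR). In neither gene did the clones overlap. The 6 neighbours of Prr5 in GRCr8 were 0.76 to 1.22 higher in hrPC12 replicate 1 than in replicate 2 on the log2 scale. Prr5 itself was 0.63 higher, and the part of this gap in its fold change was not tested. Mapkap1, another mTORC2 subunit, named after its values were seen, had 493 and 503 in wtPC12 and 2151 and 1251 in hrPC12 (adjusted p = 0.0145, edgeR). Tbc1d7, the further subunit of the tuberous sclerosis complex, had 862 and 605 in wtPC12 and 411 and 440.2 in hrPC12 (log2 FC −0.78, adjusted p = 0.0805, edgeR). The Rheb paralog Rhebl1 had 584 and 532 in wtPC12 and 299.7 and 326 in hrPC12 (log2 FC −0.83, adjusted p = 0.0502, edgeR). Both were likewise named after their values were seen.

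Among 18 tested substrates and effectors of the complexes, 2 fell and 1 rose in hrPC12 past an adjusted p of 0.01 (16.7% by edgeR, beside 13.1% of all tested genes), while 8 had a log2 FC below 0 and 10 above. Ulk1, the kinase that starts autophagy and that mTORC1 inhibits, fell from 5968 and 6734 normalized counts in wtPC12 to 1244 and 1316 in hrPC12 (log2 FC −2.31 with a standard error of 0.17, adjusted p = 0.00115 by edgeR). Maf1, a repressor of RNA polymerase III, fell from 4556 and 3656 to 1717 and 1826 (log2 FC −1.21, adjusted p = 0.00969, edgeR). Ndrg1, whose product is phosphorylated downstream of mTORC2, rose from 32.6 and 27.8 to 138 and 146 (log2 FC 2.23, adjusted p = 0.00903, edgeR). Over the 18 genes the median log2 FC came to 0.15. The call of Maf1 was lost with any library left out, at adjusted p values up to 0.0263, and that of Ndrg1 without either wtPC12 replicate or without hrPC12 replicate 2.

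Of 18 tested genes of amino acid sensing 1 fell and 2 rose past the same threshold (16.7%, beside 13.1% of all tested genes), with 9 on either side of 0. RragB, as the files spell the Rag GTPase gene, fell from 1077 and 1261 normalized counts to 375 and 409 (log2 FC −1.58, adjusted p = 0.00699, edgeR). Rragc, whose product pairs with that GTPase on the lysosome, rose from 1990.3 and 1780.0 to 3872 and 3964 (log2 FC 1.06, adjusted p = 0.00984, edgeR). Castor1, the gene of an arginine sensor listed as Gatsl3, rose from 50.0 and 45.3 to 257 and 266 (log2 FC 2.45, adjusted p = 0.00474, edgeR). Rragc lost its call with the legacy option of edgeR off (adjusted p = 0.0103) and without any 1 library, and RragB and Gatsl3 lost theirs without wtPC12 replicate 2, RragB also without either hrPC12 replicate and Gatsl3 also without wtPC12 replicate 1. Another 11 genes of the list, among them Lamtor1 and Nprl3, have no row under their symbols.

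Upstream of Tsc2, none of the 18 tested genes of growth factor input passed an adjusted p of 0.01 (edgeR), with 4 (22.2%) past 0.05 and 5 (27.8%) called by DESeq2 at 0.01, beside 32.4% and 27.7% of all tested genes. Pik3cd, a catalytic subunit of PI 3-kinase, lay lowest of the tested genes, with 55.8 and 62.8 normalized counts in wtPC12 and 5.08 and 1.01 in hrPC12 (6 and 1 reads), and an adjusted p of 0.0109 (edgeR). Rps6ka3, the gene of a ribosomal S6 kinase of the ERK arm, lay highest of the tested genes, with 261 and 406 in wtPC12 and 1254 and 658 in hrPC12 (adjusted p = 0.0457, edgeR). Its 6 neighbours in GRCr8 were 0.82 to 1.60 higher in hrPC12 replicate 1 than in replicate 2 on the log2 scale, as around Rps6kb1. Inpp4b, a phosphoinositide phosphatase gene, and Rps6ka2, a further ribosomal S6 kinase gene, did not enter the test because they had 0 reads in both wtPC12 libraries, and are named after their values were seen. Inpp4b had 396 and 172 reads in hrPC12, at least 77.4-fold higher against a floor of 3 reads per library. Rps6ka2 had 57 and 35, at least 12.7-fold higher.

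None of the 16 tested genes of energy and stress input passed 0.01 either (edgeR). Past 0.05 there were 3 (18.8%), beside 32.4% of all tested genes. DESeq2 called 3 (18.8%) at 0.01, beside 27.7%. Ddit4, whose product REDD1 acts through the tuberous sclerosis complex to restrain mTORC1, had 6999 and 5357 normalized counts in wtPC12 and 2884 and 3221 in hrPC12 (log2 FC −1.02 with a standard error of 0.20, adjusted p = 0.0198 by edgeR). Prkag3, a subunit of the energy sensor AMPK, had 0 and 2 reads in wtPC12 against 26 and 19 in hrPC12 (adjusted p = 0.0246, edgeR), too few in wtPC12 for a fold to be given.

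Transcriptional outputs of the relay were followed in a pair of lists. Of 16 tested genes of the ATF4 program, which mTORC1 can promote, 14 had a log2 FC below 0, Atf4 itself among them. Over all tested genes, with a median of 0.06, values below 0 were the minority. Past an adjusted p of 0.01, 2 fell and none rose (12.5% by edgeR). Among all tested genes 13.1% passed in either direction, and 7.14% were lower. At 0.05 there were 4 of the list (25%), beside 32.4% of all tested genes. DESeq2 called 4 (25%) at 0.01, beside 27.7%. The median of the list was −0.47, beside 0.06 over all tested genes. Trib3, a pseudokinase gene, fell from 2759 and 2055 to 479 and 540.3 normalized counts (log2 FC −2.24, adjusted p = 0.00305, edgeR), and Chac1, which codes for a glutathione-degrading enzyme, from 2719 and 2799.8 to 810.2 and 909.6 (log2 FC −1.68, adjusted p = 0.00318, edgeR). Atf4, which is 1 of the 16 and was named after its values were seen, had 19638 and 13927 in wtPC12 and 9516 and 9966 in hrPC12 (log2 FC −0.78, adjusted p = 0.0533, edgeR). Of 13 tested lysosomal and autophagy genes of the TFEB program, which mTORC1 restrains, 1 rose and none fell past 0.01 (7.69%, beside 5.94% higher among all tested genes), and their median log2 FC was 0.16. The riser was Gpnmb, which codes for a lysosomal and surface glycoprotein, with 73.3 and 41.2 normalized counts in wtPC12 and 2411 and 2469 in hrPC12 (log2 FC 5.42, standard error 0.36, adjusted p = 0.000851, edgeR). Ulk1, Trib3, Chac1 and Gpnmb kept their calls in all settings run except without wtPC12 replicate 2.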

How the data were processed

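The data are RNA-Seq counts of 2 wtPC12 and 2 hrPC12 libraries, grouped by the REST level in the labels. The authors aligned paired-end reads to rn4 with TopHat2 2.0.4, counted them with HTSeq 0.5.3 and deposited raw counts per gene (versions per the submitters' processing notes). The authors' own DESeq 1.9.12 comparison (means, fold changes, p values) was not used. Closing rows that name no gene were left out; reads outside genes made up 49.9% to 55.9% of a library.

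Counts were analysed in R 4.3.3 with edgeR 4.0.16 (TMM factors, glmQLFit with the legacy option on, glmQLFTest, Benjamini-Hochberg), where the study used DESeq. Genes entered with 5 or more normalized counts on average and a read in each clone. The test was tested on simulated data. With 2 libraries per clone, an exact permutation test of 1 gene reaches no p under 0.333. Neighbours follow the gene order of GRCr8, which held 75.8% of the tested genes.

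The members and lists were chosen with earlier results of these data known. Named are Rest, the members, in each list the genes called at 0.01 or otherwise those with the lowest and highest log2 FC, and the 5 genes most like Tsc2. Alternatives were RLE factors, library totals, every gene with a read, filterByExpr, DESeq2 1.42.0, the legacy option off, a threshold of 0.05, and leaving out each library. Other listed genes enter the counts and medians only, and some are not reported here.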

Additional observations from a re-analysis of the deposited data

How the results depend on the processing

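Tsc2, Mtor and Rictor kept their direction and did not pass an adjusted p of 0.01 in any setting run. Rps6kb1 passed with DESeq2 (log2 FC 1.33) and, at an adjusted p under 0.05, Mlst8 (−0.74) and Rps6kb1 (1.37) passed, so that 1 and 2 members were called there. With each library left out in turn, the lone library of a clone is assumed to vary like the others. The log2 FC of Tsc1 lay between −0.49 and 1.0, that of Eif4ebp1 between −0.52 and 0.21, and both changed sign without wtPC12 replicate 1. The median of the members lay between 0.054 and 0.69, that of other complex subunits between −0.79 and −0.43, of growth factor input between −0.17 and 0.88, and of energy and stress input between −0.24 and −0.038; the cause was not tested.

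Genes called among all tested numbered 1796, and 3059 with every gene that had a read, 3805 with DESeq2, 4449 at 0.05 and 0 to 2143 with a library left out. In the same order of settings, other complex subunits gave 3, 3 and 3 (and 3 with RLE factors and with library totals) and 0 to 2, and amino acid sensing 5, 6 and 6 (5 with RLE factors and with library totals) and 0 to 1. Growth factor input gave 5, 5 and 4 (3 with RLE factors and with library totals, 4 with filterByExpr, 1 with the legacy option off) and 0 to 3, and energy and stress input 1, 3 and 3 and 0 to 3. Substrates and effectors gave 6 at 0.05 and 0 to 2, ATF4 targets 4 with DESeq2 and 4 at 0.05 and 0 to 2, and TFEB targets 2 and 2 and 0 to 1. No paired analysis was possible because the labels number the libraries of the clones in no shared way, and the replicate numbers used here follow the order of the samples only. The 7 members had 210 or more reads in every library, and with 2 libraries per clone the spread between replicates limits them.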
